A study of Rattus norvegicus with 6 samples.

Results

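Kidney cells move ammonia, acid and bicarbonate with membrane proteins, and 9 genes of such proteins and of a scaffold were examined here. They were the Rh glycoprotein genes Rhcg and Rhbg, the sodium-proton exchanger genes Slc9a2, Slc9a3 and Slc9a4, and the scaffold gene Slc9a3r1. The bicarbonate transporter genes Slc4a1, Slc4a4 and Slc4a7 completed the set. The genes were chosen by symbol, and all 9 were among the 17051 genes listed in the files. Kidney RNA was sequenced from 6 male Sprague Dawley rats, each a library of its own. The AL group (rats 61, 71 and 88) had a normal diet of standard chow at will, and the HD group (rats 64, 67 and 69) had a hyperammonemic diet for the same 7 days, in which an amino acid mixture composed like hemoglobin was mixed into powdered chow at 3 g per kg daily. The rats' age is not given in the sources used here. The comparison asks which routes of ammonia and acid-base transport differ in transcript level when the amino acid load, and with it the production of ammonia by the kidney, is raised.

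Proximal tubule cells make ammonium from glutamine and secrete it into the lumen, where the exchanger NHE3 (Slc9a3) can carry ammonium in place of a proton. The thick ascending limb takes ammonium up again and concentrates it in the medulla. In the collecting duct the Rh glycoproteins Rhbg, mainly on the basolateral side, and Rhcg, on the apical and basolateral sides, let ammonia pass into the urine, where it traps the protons secreted by type A intercalated cells. Each proton secreted leaves a bicarbonate ion in the cell, which returns to the blood through NBCe1 (Slc4a4) in the proximal tubule and through AE1 (Slc4a1) in type A intercalated cells.

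The regulatory windows of 3 of the genes are shown, because the Rh pair and the ammonium-carrying exchanger are the entries most directly tied to ammonia. Each is the RefSeq sequence of build GRCr8 from 250 bases before a transcript start to 50 after it, and RefSeq windows were found for 7 of the 9 genes. The windows lie on the minus strand at chr1:142965113-142965412 for Rhcg, chr2:176015100-176015399 for Rhbg and chr1:30995953-30996252 for Slc9a3. Capitals mark the GC box GGGCGG, searched on both strands, where neighboring matches may overlap.
Rhcg: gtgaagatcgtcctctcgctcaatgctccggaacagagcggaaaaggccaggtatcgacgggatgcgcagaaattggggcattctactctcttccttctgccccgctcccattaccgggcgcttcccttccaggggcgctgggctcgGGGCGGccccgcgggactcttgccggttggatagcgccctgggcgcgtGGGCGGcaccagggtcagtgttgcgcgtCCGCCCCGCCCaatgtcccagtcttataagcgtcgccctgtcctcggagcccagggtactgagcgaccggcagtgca
Rhbg: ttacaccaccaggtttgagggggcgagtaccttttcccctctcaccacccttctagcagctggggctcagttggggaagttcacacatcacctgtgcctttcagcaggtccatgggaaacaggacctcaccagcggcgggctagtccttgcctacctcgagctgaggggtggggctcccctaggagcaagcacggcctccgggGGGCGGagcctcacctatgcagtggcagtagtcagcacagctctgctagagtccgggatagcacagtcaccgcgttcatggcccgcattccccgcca
Slc9a3: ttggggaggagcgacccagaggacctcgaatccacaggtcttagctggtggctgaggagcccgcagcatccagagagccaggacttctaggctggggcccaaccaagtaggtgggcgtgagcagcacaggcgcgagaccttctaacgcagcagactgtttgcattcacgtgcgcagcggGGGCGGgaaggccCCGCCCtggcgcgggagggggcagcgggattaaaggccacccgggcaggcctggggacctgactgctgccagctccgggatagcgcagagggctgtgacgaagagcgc
The Rhcg window held 4 GC boxes, the Slc9a3 window 2 and the Rhbg window 1, while 33.1% of all 33365 windows of this length held at least 1. The forkhead core TGTTTAC, the motif class of the intercalated cell factor Foxi1, was in 3.78% of all windows and the HNF1 half-site GTTAAT in 7.46%. Neither was found in the 3 windows shown. A match is a run of letters and not a shown binding site.

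The estimated counts summed to between 12499945 and 30466461 per rat. A level is given as normalized CPM, the count scaled to the library total and a TMM factor, or as TPM where genes are compared with each other, because TPM also accounts for transcript length. Of the 17051 genes, 11553 reached a count of 30 in at least 1 rat and were tested, and all 9 genes were among them. The tissue had the markers of kidney, with Umod of the thick ascending limb at 3564 CPM, Slc34a1 of the proximal tubule at 1751 and Aqp2 of the collecting duct at 734 in the AL group (means, *n* = 3). Not all listed markers were abundant, and Slc5a2 and Slc7a7 of the proximal tubule were at 1.2 and 7.54 CPM in that group. The groups also stood apart in their markers of region. The summed level of 5 inner medulla markers was 237 to 721 CPM in the AL group and 128 to 196 in the HD group, and that of 7 podocyte markers was 56.6 to 132 and 197 to 422. Of the 721 CPM in rat 88, the inner medulla marker Akr1b1 alone made up 390. In whole tissue, fewer cells of a type and less RNA per cell cannot be told apart, and the part of tissue composition in the results below was not tested. Rat 61 was the AL rat closest to the HD group in the sum of the inner medulla markers.

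After correction over all tested genes, edgeR's quasi-likelihood test called 0 of the 9 genes and 0 of the 11553 (0%) at 0.05. At an unadjusted *P* value below 0.05, 4 of the 9 genes were found, against 10.6% of all tested genes (1224, made up of 538 with the higher level under HD and 686 with the lower). A separate fit scaled by library size alone found 1164 genes at that value, 317 higher under HD and 847 lower. Slc4a4 was higher in the HD group, where 4.66% of all genes were found in that direction, and Slc9a3, Slc4a1 and Slc4a7 were lower, against 5.94%. The AL and HD rats did not overlap in 5 of the 9 genes, these 4 and Rhcg, against 14.3% of all tested genes. For 2 of the 5, Rhcg and Slc4a4, the HD rats were the higher ones, against 7.25% of all genes, and for 3 they were the lower ones, against 7.01%. DESeq2 with default settings placed 1 of the 9, Slc4a4, past an adjusted *P* value of 0.05. Of all tested genes, 1.58% passed it in either direction, and 0.805% of all tested genes passed it with the higher level in the HD group. Over the 9 genes the median log2 difference was 0.02, with 5 higher and 4 lower, and that of all tested genes 0.0067. With library size alone the median of the 9 turned to -0.069, with 4 higher and 5 lower. That of all tested genes turned likewise, to -0.074, with 4220 of the 11553 higher.

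**Figure D1:**
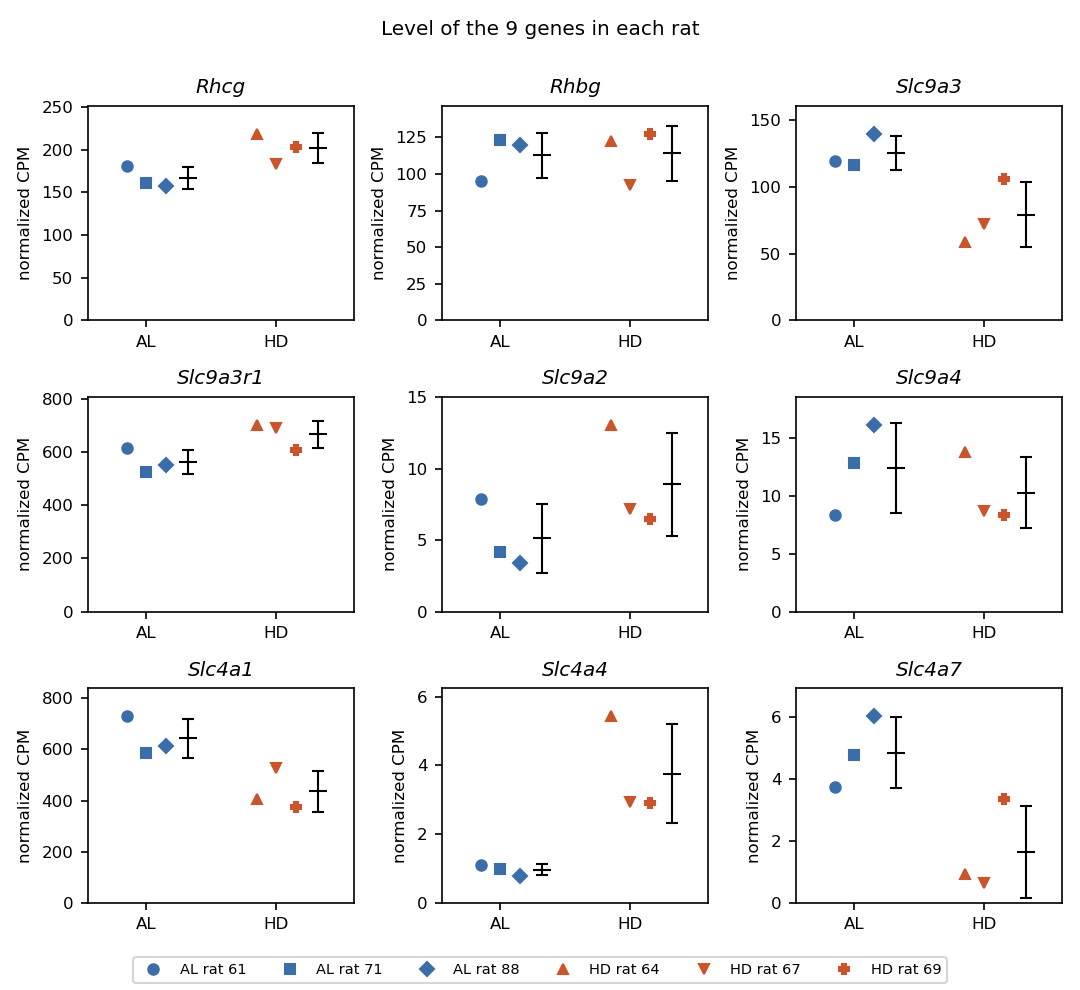
Normalized CPM of the 9 genes in each of the 6 rats, with a separate linear axis from 0 for each gene; symbols are single rats and the bar beside them is the mean ± SD of 3 rats. The 3 HD rats lie above all AL rats for Rhcg and Slc4a4 and below all AL rats for Slc9a3, Slc4a1 and Slc4a7, and the groups overlap for the other 4 genes.

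Rhcg, the Rh glycoprotein of the apical and basolateral membranes of the collecting duct, was slightly higher in the HD group. It was at 181, 162 and 157 CPM in rats 61, 71 and 88 and at 219, 183 and 204 CPM in rats 64, 67 and 69. All 3 HD rats were above all AL rats, but the gap between rat 61 and rat 67 was small. The mean level was 167 ± 12.9 CPM in the AL group and 202 ± 17.9 CPM in the HD group (SD, *n* = 3 each). By edgeR this was a log2 difference of 0.28 ± 0.12 (SE, adjusted *P* = 0.471), and the exact two-sided permutation test gave *P* = 0.1, the smallest value that 3 rats against 3 allow. Leaving out single rats moved the Rhcg value between 0.21 and 0.34.

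Rhbg, the basolateral member of the pair, overlapped between the groups. Its level was 94.9, 123 and 120 CPM in rats 61, 71 and 88 and 122, 92.4 and 127 CPM in rats 64, 67 and 69. The groups covered nearly the same range, and the lowest rat of each group stood apart from its other two. For HD minus AL, edgeR gave 0.02 ± 0.16 on the log2 scale (SE, adjusted *P* = 0.987), with a 95% interval from -0.37 to 0.40. The interval leaves room for a change in Rhbg as large as that measured in Rhcg. The direction of this small value turned to -0.07 with library size alone and to -0.06 on the TPM scale. Within a rat, the CPM of Rhcg was 1.91, 1.31 and 1.31 times that of Rhbg in rats 61, 71 and 88 and 1.79, 1.98 and 1.6 times in rats 64, 67 and 69, so the ratio overlapped between the groups.

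Both Rh genes are expressed in the collecting duct, so each was also set against the markers of its cells in the same library, among 12 such ratios computed over the 9 genes and their segments, none of which can reach a *P* value under 0.1. Relative to 9 intercalated cell markers, such as the proton pump genes Atp6v1b1 and Atp6v0a4, Rhcg was at 223, 192 and 212 CPM per 1000 summed marker CPM in rats 61, 71 and 88. In rats 64, 67 and 69 it was at 194, 211 and 207. The ratio thus covered the same range in both groups, and the log2 difference was -0.03 (two-sided exact permutation test, *P* = 0.7). The intercalated markers themselves summed to 740 to 841 CPM in the AL group and 866 to 1127 in the HD group, and 2 of them, Slc26a4 and Hmx2, were higher there at an unadjusted *P* value below 0.05. The sum of 7 principal cell markers did not separate the groups, but single markers in it did, in opposite directions. Scnn1b and Hsd11b2 had every HD rat above every AL rat, and Aqp3, Avpr2 and Fxyd4 had every HD rat below. Relative to this sum, Rhcg was at 94.0 to 117 in the AL rats and 121 to 128 in the HD rats. The log2 difference of this ratio was 0.28 (two-sided exact permutation test, *P* = 0.1). For Rhbg the log2 difference was -0.29 against the intercalated markers (*P* = 0.2) and 0.02 against the principal cell markers (*P* = 1, two-sided exact permutation tests).

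Slc9a3 encodes NHE3, the apical exchanger of the proximal tubule and thick ascending limb that recovers sodium and bicarbonate and carries ammonium. Its level was lower in the HD group, at 119, 116 and 140 CPM in rats 61, 71 and 88 and at 58.9, 72.2 and 106 CPM in rats 64, 67 and 69. All HD rats were below all AL rats, and rat 69 of the HD group lay close to the AL group. The mean was 125 ± 12.7 CPM in the AL group and 79.0 ± 24.2 CPM in the HD group (SD, *n* = 3 each). edgeR put the difference at -0.66 ± 0.21 on the log2 scale (SE, 95% interval -1.16 to -0.16, adjusted *P* = 0.406), and the exact two-sided permutation test gave *P* = 0.1. The adjusted value from DESeq2 was 0.126. The log2 fold change of Slc9a3 was -0.49 without rat 64 and -0.93 without rat 69.

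The difference in Slc9a3 had a larger estimate when set against summed markers of the proximal tubule, whose own sum was higher in the HD group. The 8 proximal tubule markers summed to 4217 to 5726 CPM in the AL group and 6090 to 8095 CPM in the HD group. The phosphate transporter Slc34a1, Slc13a3, Slc22a6 and Slc7a7 were higher at an unadjusted *P* value below 0.05 in edgeR. Lrp2, Cubn and Slc5a2, with log2 differences of 0.19, -0.05 and 0.57, did not pass that value. Lrp2 was at 2084 and 2378 CPM and Cubn at 360 and 349 CPM (means of the AL and HD groups). Per 1000 CPM of the 8 markers, Slc9a3 was at 20.9, 23.9 and 33.1 in rats 61, 71 and 88 and at 7.28, 10.7 and 17.4 in rats 64, 67 and 69. The log2 difference was -1.2 (two-sided exact permutation test, *P* = 0.1). Against 6 markers of the thick ascending limb, a list set for Slc9a3 after the data were examined, the log2 difference was -0.35 (two-sided exact permutation test, *P* = 0.1), again with all HD rats below all AL rats. The inner medulla markers, lower in the HD group, moved with Slc9a3, and their part in its difference was not tested. Rat 61, the lowest AL rat in these markers, was between the other AL rats in Slc9a3, and rat 69, the highest HD rat in these markers, was also the highest HD rat in Slc9a3.

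Slc9a3r1 encodes NHERF1, the scaffold that anchors NHE3 and the phosphate transporter in the brush border. It was at 613, 525 and 551 CPM in rats 61, 71 and 88 and at 701, 691 and 608 CPM in rats 64, 67 and 69. The groups overlapped, since rat 69 of the HD group was below rat 61 of the AL group. By edgeR this was a log2 difference of 0.24 ± 0.12 (SE, adjusted *P* = 0.538). Relative to the summed proximal tubule markers the direction was the opposite, with 107 to 131 CPM per 1000 marker CPM in the AL rats and 86.6 to 103 in the HD rats. The log2 difference of this ratio was -0.26 (two-sided exact permutation test, *P* = 0.1). Ratios to single markers, such as Lrp2 or Cubn, were not computed. Within a rat, the CPM of Slc9a3r1 was 3.95 to 5.14 times that of Slc9a3 in the AL rats and 5.74 to 11.9 times in the HD rats.

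**Figure D2:**
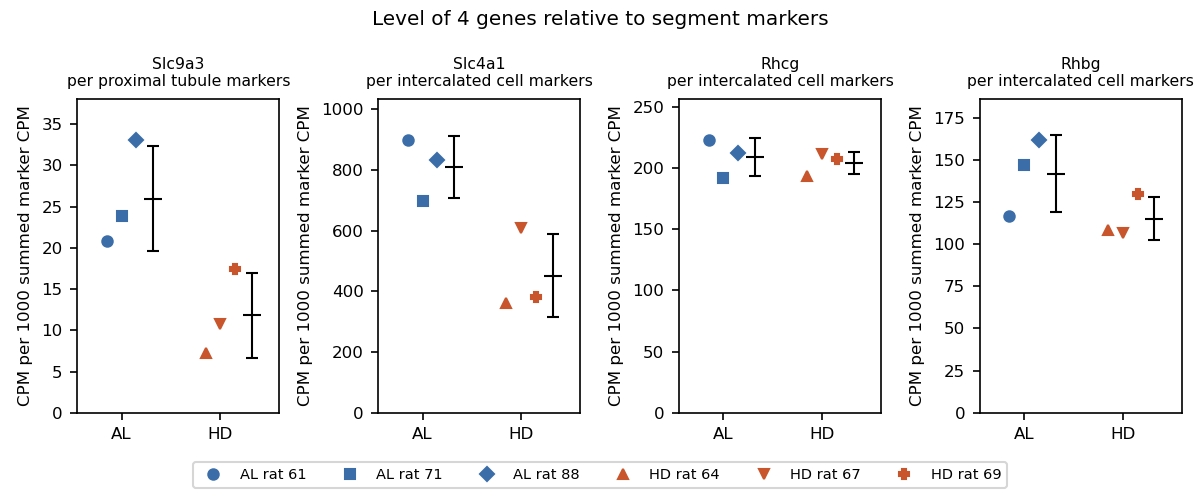
CPM of Slc9a3 per 1000 summed CPM of proximal tubule markers, and of Slc4a1, Rhcg and Rhbg per 1000 summed CPM of intercalated cell markers, in each rat, with the mean ± SD of 3 rats on axes from 0. All HD rats lie below all AL rats for Slc9a3 and Slc4a1, and the groups overlap for both Rh genes.

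The other exchangers were expressed at low levels. Slc9a4 encodes NHE4, which exports protons across the basolateral membrane of the thick ascending limb and takes part in its ammonium absorption. It was at 8.34, 12.8 and 16.1 CPM in rats 61, 71 and 88 and at 13.8, 8.64 and 8.31 CPM in rats 64, 67 and 69. The groups overlapped, with a log2 difference of -0.29 ± 0.30 in edgeR (SE, 95% interval -0.996 to 0.42, adjusted *P* = 0.803). Relative to the markers of the thick ascending limb the log2 difference was 0.09 (two-sided exact permutation test, *P* = 0.9).

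Slc9a2 encodes NHE2, an apical exchanger of the distal nephron, and lies on chromosome 9 of rn5 from 47069252 to 47174868, next to Slc9a4 at 46966185 to 47012393. It was at 7.86, 4.16 and 3.38 CPM in rats 61, 71 and 88 and at 13.1, 7.2 and 6.49 CPM in rats 64, 67 and 69. Rat 64 was the highest, and rat 61 of the AL group lay above rats 67 and 69. For HD minus AL, edgeR gave 0.79 ± 0.41 on the log2 scale (SE, adjusted *P* = 0.543). It was 0.42 without rat 64 and 1.23 without rat 61. Relative to the markers of the thick ascending limb the log2 difference was 1.17, and the groups overlapped (two-sided exact permutation test, *P* = 0.2). These levels rest on 51.4 to 203 estimated counts per rat, all of them on the transcript NM_001113335, while NM_012653 was listed at 0 in every rat.

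Slc4a1 encodes AE1, the anion exchanger that returns bicarbonate to the blood across the basolateral membrane of type A intercalated cells and that red blood cells also carry. It was one of the most abundant of the 9 genes and was lower in the HD group, with 730.3, 586 and 615 CPM in rats 61, 71 and 88 and 408, 527 and 375 CPM in rats 64, 67 and 69. All HD rats were below all AL rats. The mean was 644 ± 76.3 CPM in the AL group and 437 ± 79.8 CPM in the HD group (SD, *n* = 3 each). edgeR put the difference at -0.56 ± 0.17 on the log2 scale (SE, 95% interval -0.95 to -0.17, adjusted *P* = 0.401), and the exact two-sided permutation test gave *P* = 0.1. The adjusted value from DESeq2 was 0.0638. Leaving out single rats moved the Slc4a1 value between -0.72 and -0.46.

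Slc4a1 was also lower relative to the summed intercalated cell markers. Per 1000 CPM of these markers it was at 898, 697 and 832 in rats 61, 71 and 88 and at 362, 608 and 382 in rats 64, 67 and 69, a log2 difference of -0.88 (two-sided exact permutation test, *P* = 0.1). The sum is not limited to type A cells. Slc26a4 of type B cells, which is in it, was at 38.0 and 87.7 CPM in the AL and HD groups (means). Of the 9 markers, 7 had a positive log2 difference and 2 a negative one, Aqp6 at -0.21 and Slc26a7 at -0.68. A ratio to type A markers alone was not computed. The intercalated cell factor Foxi1 was at 33.0 ± 1.98 CPM in the AL group and 36.1 ± 9.62 CPM in the HD group (SD, *n* = 3 each). The part of red blood cell RNA in the Slc4a1 level was not tested. Over 12 erythroid genes the summed level was 725 to 1115 CPM in the AL rats and 1041 to 1848 CPM in the HD rats, and the hemoglobin gene Hba2 was at 156 to 195 CPM and 218 to 400.1 CPM. The erythroid Rh gene Rhag had 1 count in rat 61 and 0 in the other rats, and a count of 0 allows up to 3.

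Slc4a4 encodes NBCe1, the sodium-bicarbonate cotransporter of the basolateral membrane of the proximal tubule. The files list 1 transcript of it, NM_053424, with 26 exons on chromosome 14 of rn5 from 20386111 to 20723823, and the values are those of this transcript. Other transcripts of the gene may be missing from them, so neither its level nor its difference can be read as that of the whole gene. It was at 1.11, 1.00 and 0.794 CPM in rats 61, 71 and 88 and at 5.43, 2.95 and 2.91 CPM in rats 64, 67 and 69. The lowest HD rat was over the highest AL rat by a wide margin, although the AL values rest on 14, 18 and 12 counts and the HD values on 64, 59.2 and 91. The mean was 0.968 ± 0.161 CPM in the AL group and 3.76 ± 1.45 CPM in the HD group (SD, *n* = 3 each). By edgeR this was a log2 difference of 1.94 ± 0.39 (SE, 95% interval 1.03 to 2.85, adjusted *P* = 0.338), and the adjusted value from DESeq2 was 0.0112. By its unadjusted *P* value of 0.00133 it ranked at place 44 of the 11553 genes tested by edgeR. Relative to the proximal tubule markers, the log2 difference was 1.41 (two-sided exact permutation test, *P* = 0.1), with all HD rats above all AL rats. The log2 fold change of Slc4a4 was 1.13 on the scale of log2 of TPM plus 0.5, where the added constant weighs on a gene this low.

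Slc4a7 encodes NBCn1, a sodium-bicarbonate cotransporter of the medullary thick ascending limb that brings bicarbonate into cells as they absorb ammonium. It was at 3.73, 4.77 and 6.02 CPM in rats 61, 71 and 88 and at 0.934, 0.650 and 3.36 CPM in rats 64, 67 and 69. All HD rats were below all AL rats, but rat 69 lay just under rat 61. For HD minus AL, edgeR gave -1.50 ± 0.60 on the log2 scale (SE, 95% interval -2.90 to -0.10, adjusted *P* = 0.453), and it was -2.62 without rat 69. Relative to the markers of the thick ascending limb the log2 difference was -1.55 (two-sided exact permutation test, *P* = 0.1). The inner medulla markers, which were lower in the HD group, moved with Slc4a7, and their part in its difference was not tested.

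The 3 listed transcripts of Slc4a7 share most of their sequence, and the estimates divided them in an all-or-none way. The counts of rats 61 and 71 were given to NM_058211 (47 and 86), and the 91 counts of rat 88 to NM_001270860. In the HD group, rats 64 and 67 had 11 and 13 counts on NM_001270860, and rat 69 had 101 on NM_058211 and 3.94 on NM_001270860. NM_001270861 was at 0 in every rat. The choice of transcript therefore differed between rats of the same group, and only the gene sum was compared.

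Per transcript length, the 9 genes differed widely in level. In the AL group Slc9a3r1 was highest at 609 ± 9.04 TPM, followed by Slc4a1 at 225 ± 6.49, Rhcg at 137 ± 6.92, Rhbg at 110.0 ± 24.2 and Slc9a3 at 38.2 ± 5.12 (SD, *n* = 3). Each of these genes was separate from the next in all 3 AL rats. Far below them came Slc9a4 at 6.28 ± 2.26, Slc9a2 at 2.02 ± 0.757, Slc4a7 at 1.92 ± 0.552 and the listed Slc4a4 transcript at 0.430 ± 0.0625 TPM, where Slc9a2 and Slc4a7 overlapped. In the HD group Rhcg, at 159 ± 18.0 TPM, and Slc4a1, at 145 ± 20.7 TPM, overlapped, and so did Slc9a4 with Slc9a2 and Slc4a4 with Slc4a7. The order of Rhcg and Slc4a1 in the means was thus the reverse of that in the AL group.

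**Figure D3:**
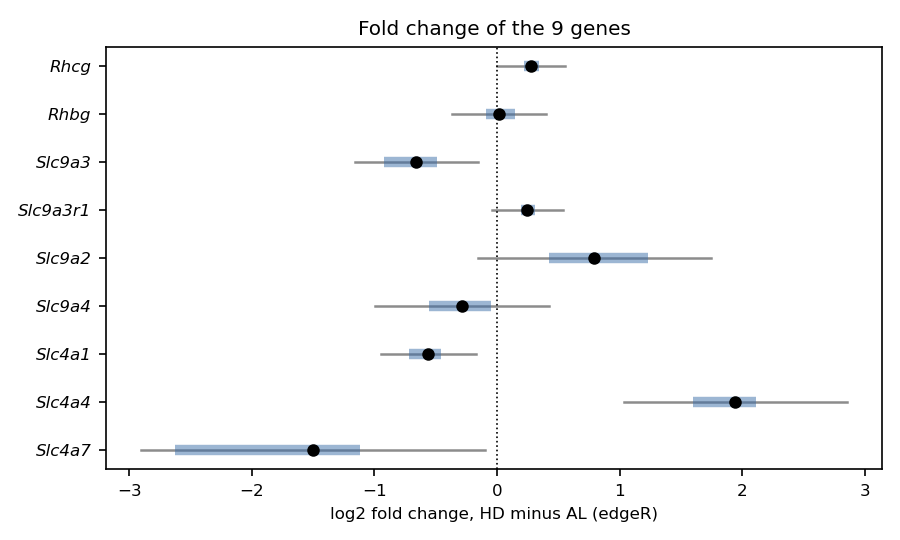
Log2 fold change of each gene, HD minus AL, from edgeR; the point is the estimate from 6 rats, the thin line its 95% interval and the thick bar the range of the estimates when single rats are left out. The interval lies below 0 for Slc9a3, Slc4a1 and Slc4a7 and above 0 for Slc4a4, and the thick bar crosses 0 for Rhbg alone.

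Other genes of acid-base transport were taken from lists of symbols. After correction edgeR called 0 of them, and the median log2 fold change over the 44 tested genes was -0.05. At an unadjusted *P* value below 0.05, 5 of the 44 were found (11.4%), close to the 10.6% of all tested genes, so the single genes named from these lists are given as values and the counts are no result about the lists. Of 4 tested sodium-proton exchangers of other types, 0 had an unadjusted *P* value below 0.05. Of 9 other bicarbonate transporters, 1 was found, the chloride-bicarbonate exchanger pendrin (Slc26a4) of type B intercalated cells, at 39.5, 34.5 and 40.0 CPM in rats 61, 71 and 88 and 117, 66.3 and 79.6 CPM in rats 64, 67 and 69. edgeR put the difference at 1.2 ± 0.21 on the log2 scale (SE, adjusted *P* = 0.327), with every HD rat above every AL rat. Slc4a2, the anion exchanger AE2 of many epithelia, was at 80.9 and 84.3 CPM (means of the AL and HD groups, *n* = 3 each).

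Among 12 tested carbonic anhydrases, which make the bicarbonate and protons that these transporters move, 1 was found, the secreted form Car6 with a log2 difference of 1.16 ± 0.34 in edgeR (SE, adjusted *P* = 0.398). The cytosolic form of tubule cells, listed as Ca2, was at 509 and 487 CPM (means of the AL and HD groups, *n* = 3 each). None of 8 exchanger regulators was found, among them Pdzk1, a second brush border scaffold, at 699.8 and 859.9 CPM. Of 6 tested acid-base sensors, 1 was found, Insrr, a receptor that responds to alkaline pH, with a log2 difference of 0.89 ± 0.23 in edgeR (SE, adjusted *P* = 0.398).

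Of 5 tested transporters that can carry ammonium, 2 were found, both lower in the HD group. Slc12a1 (NKCC2), the apical cotransporter that takes ammonium into the thick ascending limb, was at 2518, 1745 and 1704 CPM in rats 61, 71 and 88 and at 676, 1043 and 1563 CPM in rats 64, 67 and 69. By edgeR this was a log2 difference of -0.86 ± 0.31 (SE, adjusted *P* = 0.409). Slc12a2 (NKCC1), on the basolateral side of collecting duct cells, had a log2 difference of -0.32 ± 0.13 in edgeR (SE, adjusted *P* = 0.462). Slc12a1 is itself 1 of the 6 thick ascending limb markers used above, and Umod of the same segment was at 3564 and 3273 CPM in the means of the groups.

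**Figure D4:**
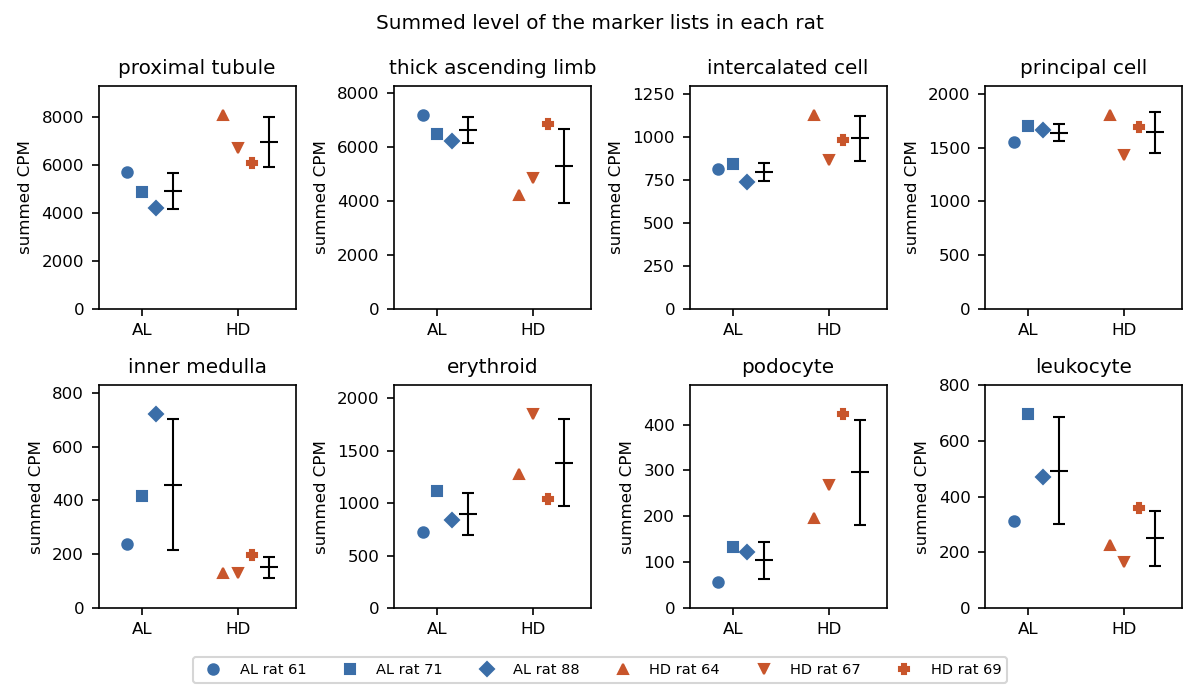
Summed normalized CPM of 8 lists of cell type and region markers in each rat, with the mean ± SD of 3 rats, on linear axes from 0. The 3 HD rats lie above all AL rats for proximal tubule, intercalated cell and podocyte markers and below all AL rats for inner medulla markers, and the groups overlap for the other lists.

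The markers of region and of other cell types moved with the groups beside the 9 genes. Of all tested genes, 4.66% were higher in the HD group and 5.94% lower at an unadjusted *P* value below 0.05 in edgeR. At an unadjusted *P* value below 0.05, 4 of 7 tested proximal tubule markers were higher in the HD group, as were 4 of 7 podocyte markers (such as Wt1 and Ptpro), 2 of 9 intercalated cell markers and 3 of 8 erythroid genes (Hba2, Hba1 and Epb42). In the other direction were 5 of 5 inner medulla markers, with log2 differences from -2.63 for the aldose reductase gene Akr1b1 and -2.37 for the inositol transporter gene Slc5a3 to -1.02 for Aqp4, and with the urea transporter gene Slc14a2 and Slc6a12 between them. So were 5 of 7 tested leukocyte markers (Ptprc, C1qa, C1qb, Cd3e and Lyz2) and 1 of 6 thick ascending limb markers (Slc12a1). The principal cell markers went both ways, with 2 higher (Scnn1b and Hsd11b2) and 3 lower (Aqp3, Avpr2 and Fxyd4) of 7. For the distal convoluted tubule only Slc12a3 was tested, with 18.1 to 27.6 CPM in the AL rats and 51.5 to 287 CPM in the HD rats. The leukocyte markers summed to 314 to 696 CPM in the AL group and 167 to 358 CPM in the HD group, and Cd3e of T cells was at 0 in rats 64 and 67.

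The genes whose levels followed those of the members most closely over the 6 rats were named by rule, as a description. For Rhcg they were Dhtkd1 (Pearson's *r* = 0.99), Ly6i (0.99) and Grwd1 (0.98), and for Slc9a3 they were Cttnbp2nl (0.99), Lrsam1 (0.99) and Idua (0.99). For Slc4a1 they were Exog (0.99), Zfp394 (0.99) and Chrnb1 (0.99). The rats of a group share their diet. Of the 11553 genes, 39 were above 0.95 with Rhcg, 85 with Slc9a3 and 29 with Slc4a1. Among the 9 genes, Rhcg and Rhbg had *r* = 0.09, and Slc9a3 and Slc9a3r1 had *r* = -0.88.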

How the data were processed

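Libraries were made from poly(A)-selected kidney RNA with the TruSeq RNA v2 kit, which does not mark strand, and read as single ends of 100 bases. Per the labels and the study's methods, the authors assigned reads to transcripts with RSEM 1.1.15 at default parameters and the UCSC gene definitions for rn5. The aligner and read filters are not given in the sources used here. The authors deposited an estimated count (expected count) per transcript, not normalized, a posterior mean of it, and TPM.

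Counts were summed per gene and rounded. Genes reaching 30 counts in any rat were tested by edgeR 4.0.16 (R 4.3.3; quasi-likelihood, TMM, diet as the only factor, Benjamini-Hochberg over 11553 genes, threshold 0.05). DESeq2 1.42.0, the study's tool, and limma 3.58.1 on log2 of TPM plus 0.5 were alternatives. The standard error is the absolute log2 fold change over the square root of F. Permutation tests used all 20 assignments of 6 rats to the groups, on log2 of CPM plus 0.5 or of the ratio to summed marker CPM. Every pair of rats differed beyond sampling noise (chi-square per degree of freedom at least 24.2), and replicates are separate rats. No exon of the 9 genes overlapped an exon of another listed gene. The fits were tested on simulated data. The genes, lists and tests were chosen with earlier results of these data known. Named genes are the 9, listed genes with an unadjusted *P* value below 0.05 or in a count of 5 or fewer, and for Rhcg, Slc9a3 and Slc4a1 the 3 genes with the highest correlation; others (such as Umod and Foxi1) were added as references after their values were seen. Scripts ran in Python 3.11.15.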

Additional observations from a re-analysis of the deposited data

How the results depend on the processing

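The number of genes past the adjusted threshold was 0 in edgeR, 182 with DESeq2 and 2 with no minimum count, and ranged from 0 to 4 when single rats were left out. The other alternatives gave 0. Of the 9 log2 fold changes, Slc4a4 alone passed the threshold in an alternative, with 1.94 in DESeq2. Rhbg alone changed direction: -0.069 with library size alone, -0.0574 with limma on log2 of TPM plus 0.5 (the same value in the permutation test on TPM), and -0.092 to 0.148 with each rat left out. The log2 ratio of Rhcg to intercalated cell markers turned to 0.0103 with TPM and ranged from -0.0923 to 0.0155 with each rat left out. With each rat left out, that of Rhbg to principal cell markers ranged from -0.0632 to 0.0655 and that of Slc9a4 to thick ascending limb markers from -0.298 to 0.414. The cause was not tested. The remaining 240 comparisons with an alternative did not change. Among them the log2 fold changes kept their direction and their side of the threshold, the marker ratios were checked for direction alone, and the gene counts stayed at 0. With 3 rats in each group the exact test cannot go below 0.1, and depth limits Slc4a4 and Slc4a7 most, with 12 and 11 counts in their lowest rat. No paired analysis was possible because the labels give the rats no shared numbers.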

Other observations

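Within the list of 9 intercalated cell markers, 7 had a positive log2 difference and 2 a negative one, while 5928 of the 11553 tested genes had a positive one. Of the 9, 2 passed an unadjusted *P* value of 0.05 in edgeR, both higher in the HD group, against 4.66% of all tested genes in that direction. The 2 were pendrin (Slc26a4) and the transcription factor gene Hmx2. Hmx2 was at 2.70, 2.22 and 3.57 CPM in rats 61, 71 and 88 and at 7.13, 8.54 and 5.85 CPM in rats 64, 67 and 69. The Hmx2 difference was 1.34 ± 0.28 on the log2 scale (SE, adjusted *P* = 0.368 in edgeR). The water channel gene Aqp6 had a log2 difference of -0.21 and the anion transporter gene Slc26a7 one of -0.68, both with overlap between the groups.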
